A study of Mus musculus with 5 samples.

Results

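The genes described here handle zinc and iron. They are 9 genes fixed by name: the metallothioneins Mt1 and Mt2, the metal transporters Slc30a10 and Slc39a14, and the iron genes Hamp, Tfrc, Slc40a1, Fth1 and Ftl1. A gene counted as measured when a probe set of the array was annotated to its symbol alone, and the brightest such probe set on average was to represent a gene that had several. That held for 7 of the 9, each with 1 probe set, among 22059 genes measured in all. Slc30a10 and Ftl1 are annotated only on probe sets that carry other symbols too, so no level is given for them in the comparisons. The study describes its RNA as that of primary astrocytes, grown from the cerebral cortex of newborn FVB mice heterozygous for an LRRK2 transgene. The transgene was either the Parkinson's disease mutant G2019S (LRRK2-GS, 3 arrays) or the wild-type form (LRRK2-WT, 2 arrays). By that description the cells had been held without serum to deplete microglia and meningeal cells. On all 5 arrays they had been treated with tunicamycin, which blocks N-linked glycosylation and stresses the endoplasmic reticulum, at 0.2 μg/ml and for 3 h by the sample labels, while the study's text names a longer treatment. No untreated array was analysed here, so the values compare genotypes under stress and hold no response to tunicamycin. The sources used here name neither the promoter of the transgenes nor the sex of the pups. They also do not say that each array is a separate culture, so the p-values reflect array-to-array spread alone, which may be technical.

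Metallothioneins are small, cysteine-rich proteins that bind zinc and copper and buffer them in the cytosol. Their genes are switched on by the zinc-sensing transcription factor MTF1, and also by glucocorticoids and by inflammatory cytokines such as IL-6. Iron enters many cells bound to transferrin, through the transferrin receptor Tfrc, is stored in ferritin shells of heavy (Fth1) and light (Ftl1) chains, and leaves through ferroportin (Slc40a1). Hepcidin, the product of Hamp, is a hormone of hepatocytes that sends ferroportin to degradation and so holds iron inside cells. When iron is short, iron regulatory proteins stabilise the Tfrc mRNA and block the translation of ferritin mRNAs, so that much of this control leaves no mark on ferritin mRNA levels.

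Most markers of the labelled cell type were dim and those of hepatocytes were bright. The study itself reports high astrocyte purity, from GFAP staining of its cultures and from marker genes on its arrays. Of 10 astrocyte markers 6 lay above the background level on every array (3.39 on the log2 scale, the level that 95% of 1107 olfactory receptor probe sets do not exceed). Gfap read 4.10 to 4.28 in LRRK2-GS and 3.99 to 4.10 in LRRK2-WT, and Aqp4 read 2.68 to 2.92 in LRRK2-GS and 2.67 to 2.83 in LRRK2-WT, under that level. Aldh1l1, an enzyme of folate metabolism found in astrocytes and also in liver and named here after its values had been seen, read 7.35 to 8.35 in LRRK2-GS and 7.80 to 7.97 in LRRK2-WT. It was the 1 astrocyte marker above the 90th percentile of all tested probe sets (6.42) on every array. Of 10 hepatocyte markers 9 lay above that percentile on every array, with Alb at 12.55 to 12.66 in LRRK2-GS and 12.62 to 12.69 in LRRK2-WT. The list mean of the hepatocyte markers was 10.53 to 10.80 over the LRRK2-GS arrays and 10.74 to 10.81 over the LRRK2-WT arrays. For the astrocyte markers it was 3.84 to 3.98 over the LRRK2-GS arrays and 4.01 to 4.03 over the LRRK2-WT arrays. The genotypes also differed in sex-linked genes, with Xist at 2.41 to 2.65 in LRRK2-GS and 8.09 to 8.49 in LRRK2-WT, and Eif2s3y at 6.13 to 6.68 in LRRK2-GS and 2.03 to 2.31 in LRRK2-WT. Differences between genotypes below therefore cannot be told apart from differences between these male-like and female-like expression patterns, and fewer cells of a type cannot be told apart from less RNA per cell.

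Mt1 and Mt2 lie side by side on chromosome 8 and were the members whose values varied most, so their upstream sequences are shown. Windows were taken from the RefSeq promoter table (GRCm38.p6, forward strand), which holds 250 bases before and 50 after each start, and 250 before and 30 after are printed. The Mt1 stretch is chr8:94178839-94179118 and its start lies 206 bases inside the annotated span of the gene. The Mt2 stretch is chr8:94172368-94172647. Capitals mark the core of the metal response element, the site that MTF1 binds, searched as TGCACNC or TGCGCNC on both strands, with overlapping matches counted once.
Mt1: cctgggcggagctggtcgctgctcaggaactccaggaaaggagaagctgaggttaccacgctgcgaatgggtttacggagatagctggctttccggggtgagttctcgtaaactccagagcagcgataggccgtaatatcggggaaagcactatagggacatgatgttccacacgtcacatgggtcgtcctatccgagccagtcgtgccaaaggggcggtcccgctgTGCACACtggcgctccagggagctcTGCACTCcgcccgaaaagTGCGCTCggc
Mt2: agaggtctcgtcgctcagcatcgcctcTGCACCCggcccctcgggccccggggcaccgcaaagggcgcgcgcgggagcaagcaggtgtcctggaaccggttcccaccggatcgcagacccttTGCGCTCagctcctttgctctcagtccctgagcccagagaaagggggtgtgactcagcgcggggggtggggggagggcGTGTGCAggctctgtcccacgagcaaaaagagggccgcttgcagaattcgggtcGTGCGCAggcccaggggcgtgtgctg
The Mt1 window holds 3 cores and the Mt2 window holds 4. At least 1 core stood in 25.7% of all 32851 promoter windows of that length and at least 3 stood in 1.31%. The windows of the other metallothioneins, Mt3 and Mt4, hold 1 each. A window was present for Slc30a10, with 2 cores, and for Hamp and Ftl1, with 0 each. There were 2 windows each for Fth1, with 0 and 0, and for Tfrc, with 1 and 0. Such a match describes the sequence and does not show that MTF1 was bound there.

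**Figure D1:**
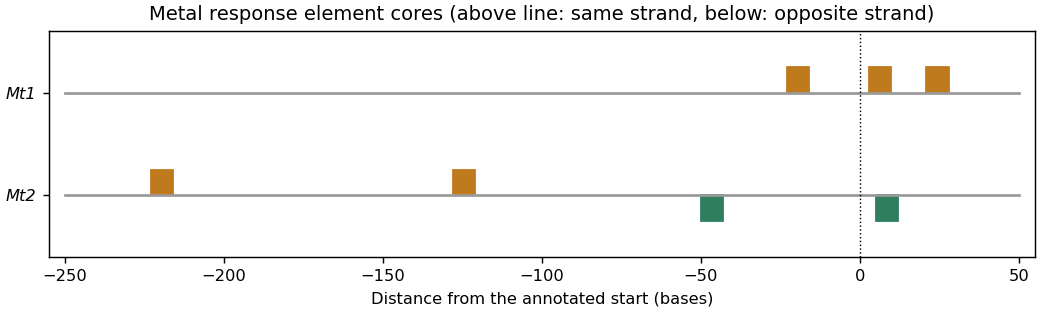
Positions of metal response element cores along the 300-base windows of Mt1 (upper line) and Mt2 (lower line), in bases from the annotated start (dotted line). Boxes above a line are on the same strand as the gene and boxes below it on the opposite strand, and the Mt1 window shows 3 and the Mt2 window 4.

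Mt1 and Mt2 were bright on every array and lay far lower on a single LRRK2-GS array. Mt1 (probe set 17503942) read 9.30, 8.99 and 6.53 on LRRK2-GS arrays 1, 2 and 3, against 8.70 and 8.77 on LRRK2-WT arrays 1 and 2, all on the log2 scale. Mt2 (probe set 17503937) read 11.16, 10.72 and 7.53 on the LRRK2-GS arrays, against 10.05 and 10.24 on the LRRK2-WT arrays. For both genes LRRK2-GS arrays 1 and 2 lay above both LRRK2-WT arrays and LRRK2-GS array 3 lay below every other array, so the groups overlapped. Mt1 averaged 8.27 ± 1.52 in LRRK2-GS (SD, n = 3) and 8.74 ± 0.05 in LRRK2-WT (SD, n = 2). LRRK2-GS minus LRRK2-WT came to -0.46 (95% interval -3.47 to 2.55, limma adjusted p = 0.931). Mt2 averaged 9.80 ± 1.98 in LRRK2-GS (SD, n = 3) and 10.15 ± 0.14 in LRRK2-WT (SD, n = 2). Its difference was -0.34 (interval -4.27 to 3.58, limma adjusted p = 1.00). These intervals are wide enough to hold a rise or a fall of several-fold. Without LRRK2-GS array 3 both differences turned positive, at 0.41 for Mt1 and 0.79 for Mt2, and neither passed (limma adjusted p = 0.671 for each). Leaving out LRRK2-GS array 1 gave -0.98 for Mt1 and -1.02 for Mt2, and leaving out LRRK2-GS array 2 gave -0.82 for Mt1 and -0.81 for Mt2.

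**Figure D2:**
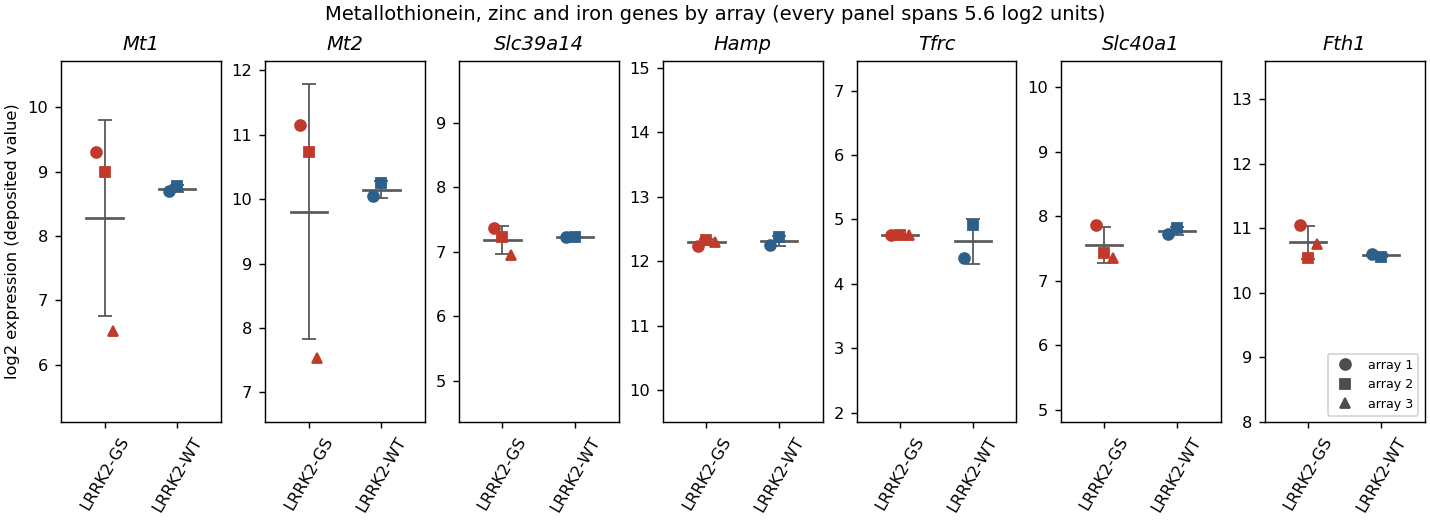
Deposited log2 expression of the 7 measured genes on each array, with LRRK2-GS (3 arrays, red) left of LRRK2-WT (2 arrays, blue), marker shape giving the array number and grey lines the mean ± SD. LRRK2-GS array 3 (triangle) lies far below the other arrays for Mt1 (6.53) and Mt2 (7.53), while each of the other genes spans at most 0.52 log2 units. A span that wide was reached by 19.8% of tested probe sets.

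Few genes were as low on LRRK2-GS array 3 as these. Against the mean of the other 4 arrays, that array read -2.41 for Mt1 and -3.01 for Mt2. Of 23396 tested probe sets, Mt1 and Mt2 were the 2 that read at least 2 log2 units below all other arrays on LRRK2-GS array 3, at -2.17 and -2.52 relative to the next lowest array. No probe set read that far below the others on any of the other 4 arrays, while 7 read that far above on LRRK2-GS arrays, 4 of them on array 3. At a gap of at least 1 log2 unit, 23, 6 and 11 probe sets read below all others on LRRK2-GS arrays 1, 2 and 3. On LRRK2-WT arrays 1 and 2 it was 6 and 1. LRRK2-GS array 3 was below all other arrays by any amount for 17.8% of tested probe sets and above them for 17.7%, and its median over the table was 3.28, with 3.26 to 3.28 on the others. Over the 5 arrays Mt2 spanned 3.63 log2 units, a range that 12 tested probe sets reached, itself included, and Mt1 spanned 2.77, which 32 reached. The pair did not move by the same amount, since Mt2 minus Mt1 was 1.85, 1.73 and 1.00 on the LRRK2-GS arrays and 1.35 and 1.47 on the LRRK2-WT arrays. Whether the probe sets of these closely related genes read each other's transcript was not tested.

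The genes nearest in pattern to Mt2 were taken as those with the smallest root mean square difference after each gene had been centred on its mean over the 5 arrays. Mt1 came first (0.30 log2 units), followed by Il1rn (0.54), the antagonist of the IL-1 receptor, and Apcs (0.64), serum amyloid P component, an acute phase protein of mouse liver. Il1rn read 5.59, 5.74 and 3.56 in LRRK2-GS against 4.99 and 4.99 in LRRK2-WT. Apcs read 10.51, 10.03 and 8.59 in LRRK2-GS against 9.90 and 9.82 in LRRK2-WT. Both were lowest on LRRK2-GS array 3 and higher on LRRK2-GS arrays 1 and 2 than on both LRRK2-WT arrays, as Mt1 and Mt2 were. That likeness follows from how the genes were picked and is no separate result. The Il1rn value on LRRK2-GS array 3 lay close to the background level of 3.39, and its LRRK2-WT values were tied.

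Across the measured members no difference between the genotypes passed. With a call set at more than 1.5-fold and a limma adjusted p no higher than 0.05, 0 of the 7 were called, as were 0% of all tested probe sets. An unadjusted p under 0.05 was reached by 0 of the 7 and by 2.09% of all. Over 1.5-fold lay 0 members, against 0.957% of all probe sets. In 0 members did the 3 LRRK2-GS arrays all lie on one side of both LRRK2-WT arrays, against 7.5% of all. Of the 7, 2 were higher in LRRK2-GS and 5 lower, with a median difference of -0.04, where over all tested probe sets 48.8% were higher, 42.7% were lower and the median was 0. A miss at this threshold with 3 and 2 arrays does not show that the genotypes have equal levels.

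**Figure D3:**
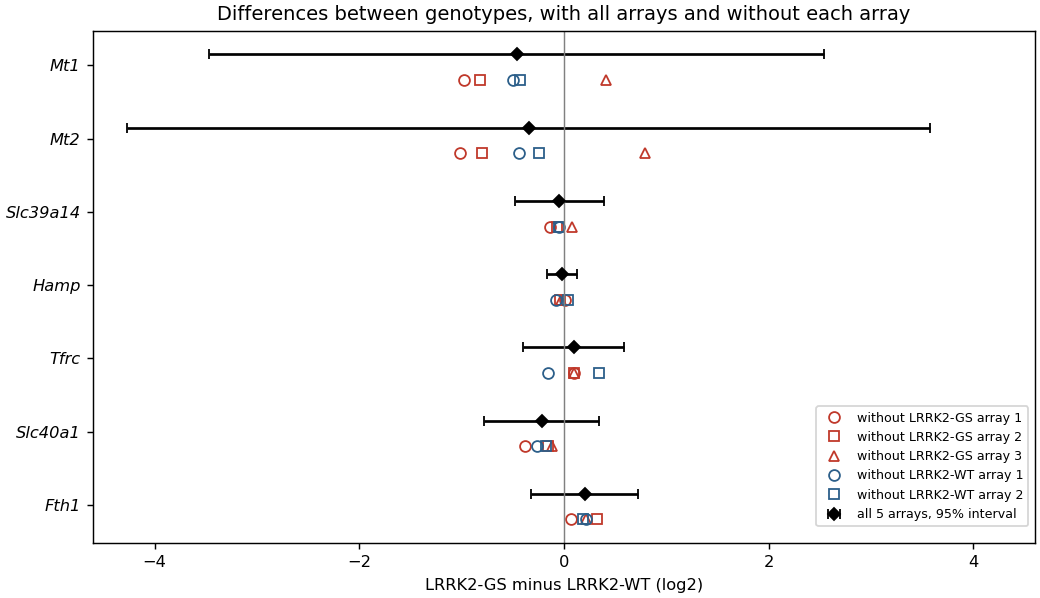
Log2 difference of each measured gene (LRRK2-GS minus LRRK2-WT) with all 5 arrays (diamond, bar for the 95% limma interval) and without each array in turn (open symbols). The intervals of Mt1 and Mt2 reach from under -3 to over 2, and without LRRK2-GS array 3 (triangle) both differences turn positive, at 0.41 and 0.79.

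Of the 4 measured metallothioneins 1 was higher in LRRK2-GS and 3 lower, with a median difference of -0.23 and 0 called. Without LRRK2-GS array 3 the list had 2 higher and 2 lower, with a median of 0.17. Mt3, the form known from brain, read 2.94, 3.08 and 3.42 in LRRK2-GS against 3.07 and 3.08 in LRRK2-WT, a difference of 0.07. Mt4, known from stratified squamous epithelia, read 3.20, 3.05 and 3.20 in LRRK2-GS against 3.20 and 3.34 in LRRK2-WT, a difference of -0.12. The means of both lay under the background level of 3.39, and neither was low on LRRK2-GS array 3. Mtf1, which encodes the zinc sensor, read 4.58 on LRRK2-GS array 1 and 4.63 on the other 4 arrays, a difference of -0.02. A list of the Slc30 family, most of whose members move zinc out of the cytosol, had 8 measured genes of 10, of which 4 were higher, 3 were lower and 0 were called (median difference 0.04). The smallest limma p-values in it belonged to Slc30a8 (0.09, under background at 1.88 in LRRK2-GS and 1.79 in LRRK2-WT), Slc30a9 (0.08), Slc30a6 (-0.13) and Slc30a3 (-0.31). Slc30a3, a zinc carrier of synaptic vesicles in brain, read 5.33, 5.28 and 4.50 in LRRK2-GS against 5.28 and 5.42 in LRRK2-WT. It was lowest on LRRK2-GS array 3. Of the 8 genes that array read lowest for 4 and highest for 3, against 17.8% and 17.7% of all tested probe sets. Slc30a1, the plasma membrane zinc exporter, was not analysed here.

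Slc39a14, also called ZIP14, carries zinc, iron and manganese into cells and is raised by IL-6 in liver. Its probe set (17308299, chromosome 14) read 7.37, 7.22 and 6.94 in LRRK2-GS against 7.22 and 7.22 in LRRK2-WT. LRRK2-GS array 3 was lowest and LRRK2-GS array 1 highest. In between, LRRK2-GS array 2 and both LRRK2-WT arrays held the same value. It averaged 7.18 ± 0.22 in LRRK2-GS (SD, n = 3) and 7.22 ± 0.00 in LRRK2-WT (SD, n = 2), where the SD comes from tied values and says little about spread. The difference was -0.04 (interval -0.48 to 0.39, limma adjusted p = 0.989), and it was 0.07 without LRRK2-GS array 3. Of the 14 measured genes of its family, the Slc39 zinc importers, 8 were higher, 5 were lower and 0 were called (median difference 0.01). Slc39a8 (-0.24), a close relative of Slc39a14, Slc39a11 (0.06), Slc39a1 (0.06) and Slc39a6 (-0.18) had the smallest limma p-values among the others. In 3 of the 14, LRRK2-GS array 3 read below all other arrays, and in 1 above them. Among all tested probe sets these shares were 17.8% and 17.7%.

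Neither the main gene of iron import nor that of iron export was called. Tfrc (probe set 17324835, chromosome 16) read 4.75 on all 3 LRRK2-GS arrays against 4.41 and 4.91 in LRRK2-WT. The LRRK2-WT arrays lay on either side of the LRRK2-GS value, and the 3 LRRK2-GS values were identical to the last digit. Values tied on at least 2 arrays occur in 18203 of the 23396 tested probe sets, so the SD of 0 says little about spread. It averaged 4.75 in LRRK2-GS and 4.66 ± 0.35 in LRRK2-WT (SD, n = 2), a difference of 0.09 (interval -0.40 to 0.59, limma adjusted p = 0.892). Without LRRK2-WT array 1 the difference was -0.16, and without LRRK2-WT array 2 it was 0.34, the opposite sign. With the 3 tied values set against 1 array, limma gave an adjusted p = 0.0203 for the first and an adjusted p = 0.0139 for the second, so each direction passed in turn, both under 1.5-fold. Slc40a1, the ferroportin gene (probe set 17222777, chromosome 1), read 7.87, 7.44 and 7.35 in LRRK2-GS against 7.72 and 7.81 in LRRK2-WT. LRRK2-GS arrays 2 and 3 were below both LRRK2-WT arrays and LRRK2-GS array 1 was above them. It averaged 7.55 ± 0.28 in LRRK2-GS (SD, n = 3) and 7.77 ± 0.06 in LRRK2-WT (SD, n = 2). The difference was -0.22 (interval -0.78 to 0.34, limma adjusted p = 0.826), and -0.38 without LRRK2-GS array 1.

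Of 15 measured genes of cellular iron transport, 7 were higher and 8 lower in LRRK2-GS, with a median difference of 0.00 and 0 called. Without LRRK2-GS array 3 it was 10 higher and 5 lower (median 0.14), and without LRRK2-WT array 2 it was 11 higher and 4 lower (median 0.07). In 1 of them all LRRK2-GS arrays lay above both LRRK2-WT arrays and in 1 below, against 3.76% and 3.74% of all tested probe sets. The gene above was Slc25a37, mitoferrin 1, which brings iron into mitochondria for haem and iron-sulphur synthesis. It read 6.19, 5.81 and 6.11 in LRRK2-GS against 5.33 and 5.63 in LRRK2-WT, a difference of 0.56 (interval 0.05 to 1.06, limma adjusted p = 0.826). The gene below was Tfr2, the second transferrin receptor, with which hepatocytes sense iron-loaded transferrin. Tfr2 read 7.46, 7.81 and 7.81 in LRRK2-GS against 8.10 and 7.87 in LRRK2-WT, a difference of -0.29. Heph (0.33), a ferroxidase that works with ferroportin, and Steap2 (-0.34), a metalloreductase whose mean lay under background in LRRK2-GS (3.12) and just over it in LRRK2-WT (3.47), also belonged to the 4 with the smallest limma p-values. LRRK2-GS array 3 read below all others for 17.8% of tested probe sets and above all others for 17.7%. In this list it read below in 7 of the 15 genes and above in 0. The lowest of them against the mean of the other arrays was Steap4 (-1.12), an iron and copper reductase named here after its values had been seen, at 8.61, 9.55 and 7.44 in LRRK2-GS against 8.16 and 7.90 in LRRK2-WT.

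Fth1, the ferritin heavy chain with the ferroxidase centre (probe set 17357418, chromosome 19), was bright throughout. It read 11.06, 10.53 and 10.75 in LRRK2-GS against 10.60 and 10.56 in LRRK2-WT. LRRK2-GS array 1 was highest and LRRK2-GS array 2 lowest, so the groups overlapped. It averaged 10.78 ± 0.26 in LRRK2-GS (SD, n = 3) and 10.58 ± 0.02 in LRRK2-WT (SD, n = 2), a difference of 0.20 (interval -0.32 to 0.72, limma adjusted p = 0.826), and 0.06 without LRRK2-GS array 1. On LRRK2-GS array 3 it lay 0.07 above the mean of the other arrays. Of 8 measured genes of ferritin and its control by iron regulatory proteins, Fth1 was the 1 that was higher and 7 were lower, with a median difference of -0.07 and 0 called. That split depended on single arrays, with 5 higher and 3 lower without LRRK2-GS array 3 (median 0.01) and 4 of each without LRRK2-WT array 2. The smallest limma p-values among the 7 were those of Ftmt, the mitochondrial ferritin (-0.05, with the LRRK2-GS mean of 3.36 under background), Pcbp2 (-0.09), which delivers iron to ferritin, Fbxl5 (-0.08), the ligase subunit that degrades iron regulatory protein 2, and Ncoa4 (-0.10), the receptor that takes ferritin to lysosomes.

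Hamp was the steadiest member. Its probe set (17489363, chromosome 7) read 12.24, 12.33 and 12.30 in LRRK2-GS against 12.26 and 12.37 in LRRK2-WT, all far above background. The values of the 2 genotypes interleaved within 0.13 log2 units. It averaged 12.29 ± 0.05 in LRRK2-GS (SD, n = 3) and 12.31 ± 0.08 in LRRK2-WT (SD, n = 2). The difference was -0.02 (interval -0.17 to 0.13, limma adjusted p = 0.952), and LRRK2-GS array 3 did not stand apart. Hepcidin is made by hepatocytes, of whose 10 markers 9 were above the 90th percentile on all 5 arrays. A neighbouring copy, Hamp2, has a probe set of its own, and whether either reads the other's transcript was not tested.

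The list of hepcidin and its regulators held more lower than higher genes. Of 25 measured, Hamp included, 20 were lower and 5 higher in LRRK2-GS, with a median difference of -0.12, against 42.7% lower among all tested probe sets. In 5 genes all LRRK2-GS values were under both LRRK2-WT values and in 0 over them, against 3.74% and 3.76% of all tested probe sets. Such a share was not particular to this list. The genes of haem and haemoglobin handling had 2 of 10 under and 1 over, and the copper genes 2 of 7 under and 0 over. Of the 10 hepatocyte markers 8 were lower and 2 higher in LRRK2-GS. On every array 24 of the 25 lay above background, while the median level of all tested probe sets was 3.59. An unadjusted p under 0.05 was reached by 3 of the 25, against 2.09% of all. limma called 0. Hepcidin transcription is driven by BMP receptors through SMAD proteins, and by IL-6 through STAT3. Smad6, an inhibitor of that BMP signal, read 4.18, 4.11 and 4.18 in LRRK2-GS against 4.39 and 4.35 in LRRK2-WT, a difference of -0.21 (interval -0.30 to -0.11, limma adjusted p = 0.826). Bmpr2, a type II BMP receptor, read 7.76, 7.88 and 7.88 in LRRK2-GS against 8.14 and 8.08 in LRRK2-WT, a difference of -0.27. Il6ra, the IL-6 receptor, read 6.59, 6.73 and 6.98 in LRRK2-GS against 7.29 and 7.13 in LRRK2-WT, a difference of -0.45. Bmp2, a ligand that liver endothelial cells supply, read 5.01, 5.01 and 4.55 in LRRK2-GS against 5.25 and 5.48 in LRRK2-WT, a difference of -0.51. These 4 did not overlap between the genotypes, nor did Tfr2. Each stayed under 1.5-fold. Markers of liver sinusoidal endothelium, the source of Bmp2 in liver, were lower in 4 of 5 measured genes, with list means of 6.10 to 6.46 over the LRRK2-GS arrays and 6.33 to 6.43 over the LRRK2-WT arrays, and their part in these values was not tested. The count of lower genes was 17 to 21 when each array was left out in turn.

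**Figure D4:**
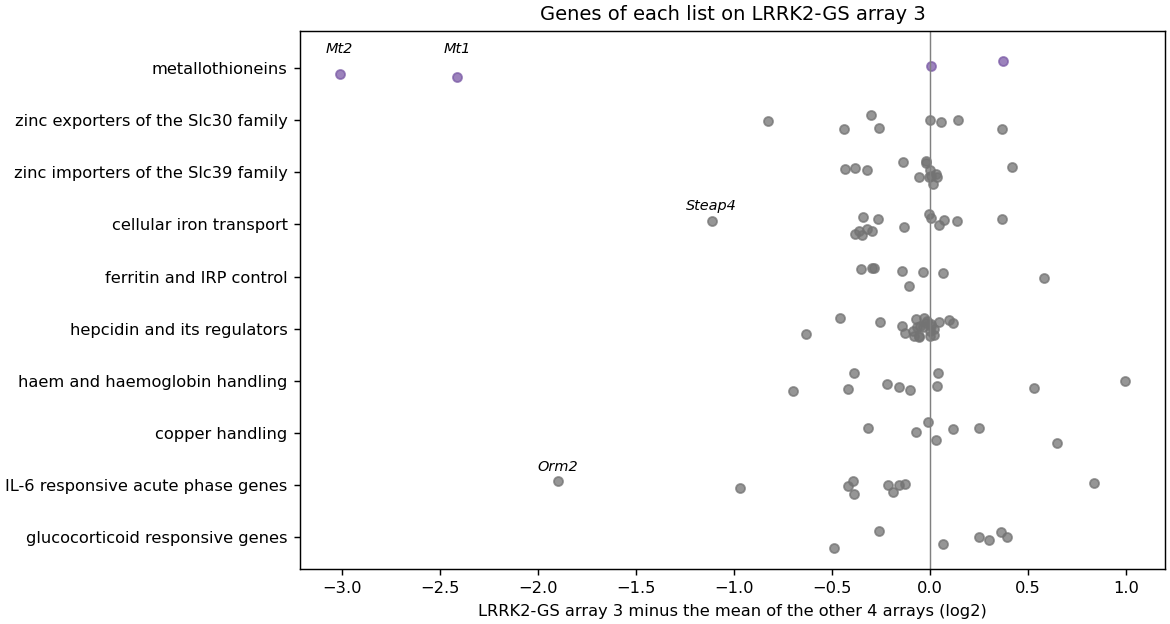
LRRK2-GS array 3 minus the mean of the other 4 arrays, on the log2 scale, for each measured gene (point) of 10 lists of metal and related genes. Mt2 (-3.01) and Mt1 (-2.41) lie furthest left, followed by Orm2 (-1.90) and Steap4 (-1.12). The genes of hepcidin control have a median of -0.04 and reach down to -0.63 (Bmp2).

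Of 10 measured acute phase genes responsive to IL-6, 8 read lowest on LRRK2-GS array 3 and 1 read highest, against 17.8% and 17.7% of all tested probe sets. For 4 of the 8 (Orm1, Fga, Fgb and Fgg) the gap to the next lowest array was small, at -0.01 to -0.07, and for the other 4 (Hpx, Socs3, Saa2 and Orm2) it was -0.24 to -1.32, against -2.17 for Mt1 and -2.52 for Mt2. In the list 6 genes were higher in LRRK2-GS and 4 lower (median difference 0.12). Without LRRK2-GS array 3 it was 9 higher and 1 lower (median 0.38), and without LRRK2-GS array 2 the direction turned, to 4 higher and 6 lower (median -0.11). Fgb, Fgg, Hpx, Socs3, Saa2 and Orm2 are named after their values had been seen. Orm2, an orosomucoid, read 6.23, 8.35 and 4.91 in LRRK2-GS against 6.23 and 6.43 in LRRK2-WT, and Orm1 (0.31) and Fga (-0.16) varied less. Saa3 went the other way, at 6.13, 5.62 and 6.20 in LRRK2-GS against 4.45 and 5.24 in LRRK2-WT, a difference of 1.14 (interval 0.13 to 2.15, limma adjusted p = 0.826). Hp, the haemoglobin scavenger haptoglobin, read 12.20, 12.07 and 11.68 in LRRK2-GS against 11.59 and 11.52 in LRRK2-WT, a difference of 0.43. Of 7 measured glucocorticoid-responsive genes 1 was lowest on LRRK2-GS array 3 and 3 were highest. Fkbp5, a chaperone of the glucocorticoid receptor, had a difference of -0.32. It was below both LRRK2-WT arrays on all LRRK2-GS arrays, as were 3.74% of all tested probe sets. Dusp1 (0.15), Zbtb16 (-0.19) and Tsc22d3 (-0.13) overlapped. Among 10 genes of haem and haemoglobin handling 6 were higher and 4 lower (median 0.03), and besides Hp the smallest limma p-values were those of Lrp1 (-0.42), Hmox2 (-0.21) and Fech (-0.32). Among 7 copper genes 2 were higher and 5 lower (median -0.03), with Atp7a (-0.02), Atox1 (0.22), Atp7b (-0.19) and Slc31a1 (-0.27) at the smallest p-values. The small medians of the glucocorticoid and haem lists changed sign when some arrays were left out, over -0.23 to 0.06 for the glucocorticoid list and -0.04 to 0.13 for the haem list. limma called 0 genes of these 4 lists. An unadjusted limma p under 0.05 was reached by Saa3 and Fkbp5, and by 2.09% of all tested probe sets.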

How the data were processed

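Cells treated with tunicamycin, which the study describes as primary mouse astrocytes, were profiled on 5 Affymetrix GeneChip Mouse Gene 2.0 ST arrays. Signals were extracted with Affymetrix Command Console software, and the authors deposited them as log2 values of 33640 probe sets. The sources used here do not say how signals were background-corrected, summarized or normalized. The deposited values were used unchanged. The platform annotation paired 23396 probe sets with exactly 1 gene symbol, 1812 with several and 8432 with none. Only the first were tested. Symbols were updated by gene ID to GRCm38.p6, where 23203 were found. Of the tested probe sets, 1989 held 1 value on all arrays. The number of arrays limits the precision.

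LRRK2-GS was compared with LRRK2-WT in limma 3.58.1 (R 4.3.3) by linear models with eBayes at default settings, two-sided, with p-values adjusted by Benjamini-Hochberg across the tested probe sets and without a replicate block. The threshold of the methods was used (over 1.5-fold, adjusted p no higher than 0.05). Intervals are 95% limma intervals of the log2 difference. The limma step was tested on simulated data with independent normal noise. Those data held no tied values, unlike the arrays, so the test does not cover tied probe sets. Pathway lists were described by counts and medians, with no list test. The members, lists and tests were chosen with earlier results of these data known. Genes named beside the members are, for each list, all other measured genes or the 4 with the smallest limma p, the genes nearest to Mt2, and those said to be named after their values were seen. Alternatives were quantile or cyclic loess normalization, array weights, a robust trended prior, the methods' t-test, leaving out dim probe sets, averaging a gene's probe sets, testing the whole table, blocking on the replicate number, and each array left out. Upstream sequences came from RefSeq, where 9 of the 11 genes looked up (the named genes, Mt3 and Mt4) had a window.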

Additional observations from a re-analysis of the deposited data

How the results depend on the processing

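The 7 members had 0 calls under all 14 alternatives. limma called 0 genes in the whole table under 12 of them and 0 to 28 when 1 array was left out (26 lacking LRRK2-WT array 1 and 28 lacking LRRK2-WT array 2, where the spread of the lone array is taken to equal that of LRRK2-GS). With 1 array left out, 0 to 2 members were over 1.5-fold (Mt1 and Mt2 without LRRK2-GS array 1 or 2, Mt2 without LRRK2-GS array 3) and 1 to 2 had no overlap between the genotypes, a count that fewer arrays raise by construction, from 7.5% of all tested probe sets to between 13.7% and 32.4%. Leaving out each array in turn, differences ran from -0.98 to 0.41 for Mt1, from -1.02 to 0.79 for Mt2, from -0.14 to 0.0744 for Slc39a14, from -0.0762 to 0.0366 for Hamp and from -0.16 to 0.34 for Tfrc, so these 5 changed sign, while Slc40a1 (-0.38 to -0.12) and Fth1 (0.06 to 0.32) did not. Array weights moved Mt1 to -0.31 and Mt2 to -0.15. Among the other 9 alternatives the sign turned for Slc39a14 (0.0025) and Hamp (0.0062) after quantile normalization and for Hamp (0.025) after cyclic loess, and the cause was not tested. Of 25 genes of the hepcidin list, 17 to 21 were lower when each array was left out, and for this and the other gene lists leaving out arrays was added after the counts had been seen.

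With the replicate number as a block, limma called 0 genes and the differences were -0.48 for Mt1 and -0.37 for Mt2, with no call changed. Deviations from the genotype means correlated at -0.126 between the arrays numbered 1 and at 0.0878 between those numbered 2. With 2 LRRK2-WT arrays, their deviations from the mean mirror each other. These correlations therefore cannot show whether arrays of the same number share a culture or a batch. Signals near background limit Mt3 and Mt4.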

Other observations

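Members without a probe set of their own were read on shared probe sets, whose values belong to the set and not to 1 gene. On 6 probe sets Ftl1 is annotated together with its pseudogenes. The 3 brightest of these read 10.30 to 11.53 on the LRRK2-GS arrays and 10.40 to 11.04 on the LRRK2-WT arrays, and a pair of them held the same 5 values. LRRK2-GS array 2 was lowest on all 6. The differences, LRRK2-GS minus LRRK2-WT, ran from -0.27 to 0.15, with the sign differing between probe sets. Slc30a10, which exports manganese, is annotated together with Gm2061 on 2 probe sets. The brighter read 4.90, 5.11 and 5.06 in LRRK2-GS against 5.04 and 5.23 in LRRK2-WT. The dimmer read 3.26 on all 3 LRRK2-GS arrays against 3.31 and 3.40 in LRRK2-WT, close to the background level of 3.39. None of the 8 stood apart on LRRK2-GS array 3 as Mt1 and Mt2 did.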
